A study of Homo sapiens with 17 samples.

Results

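Newly made RNA was compared between cells after 4 h of INTS8 loss and their control, as the authors' deposited table of comparisons gives it. All genes of that comparison were taken: 14432 of the 14538 genes of the table have a log2 change, and 13592 have an adjusted p; the other 946 have none, at a mean of 3 normalized counts or lower. The series studied the Integrator complex and stress signalling in HEK293T, a human embryonic kidney cell line, and its 17 RNA-seq libraries come from a line in which INTS1 carries a homozygous miniAID degron and from its parental line. In that line INTS1 was degraded for 4 h or 12 h with 500 µM auxin, against no auxin, and the RNA of these groups is set beside the INTS8 comparison. The INTS8 libraries are not among the 17, and the sources used here do not give their cell line, the way in which INTS8 was removed, the labelling or the number of libraries. An effect of the agent that removes INTS8 cannot be told apart from an effect of INTS8 loss. A second TT-seq comparison at 4 h names no subunit in its headers and was read as INTS1 loss, from the design of the series.

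TT-seq, transient transcriptome sequencing, labels RNA with a modified uridine for a short time and sequences what was labelled, so it follows synthesis more closely than the RNA stock. Integrator binds RNA polymerase II (Pol II) soon after initiation, cleaves the nascent RNA through its INTS11 endonuclease and ends transcription early at many genes, and it also cuts the precursors of small nuclear RNA (snRNA). INTS8 is a subunit of its phosphatase module and holds the PP2A phosphatase on the complex, where PP2A opposes the kinases that release paused Pol II; INTS1 is a scaffold of the whole complex.

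The deposited columns are means and fold changes, not values per library, so the replicate spread enters only through the authors' p-values. Changes below are log2 changes of INTS8 loss over control from the authors' deposited table; a gene was counted as higher or lower at an adjusted p under 0.05 in the authors' test, which the submitters' processing notes name as DESeq2. Each ± is the standard error implied by the change and its p. Group levels are normalized counts implied by the deposited mean and fold change, and they compare groups within a gene only. Which group stands on top of the fold change was settled from the values, as no header states it: it was chosen because the group under it lies nearer to the control of the INTS1 comparison. The INTS1 comparisons were read as loss over control too, which no header states either.

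New RNA of 892 genes was higher after INTS8 loss (6.56% of 13592 tested), and that of 390 genes was lower (2.87%), in the authors' deposited table. Rises made up 69.6% of the calls and were larger than falls, with a median log2 change of 0.74 over the higher genes and -0.49 over the lower genes in the authors' deposited table. A change of at least 1 was reached by 292 of the higher genes and 13 of the lower genes. The authors' own calls in the deposited table, at a log2 change over 1 and an adjusted p under 0.001, list 207 genes up and 4 down. The median over all tested genes was -0.01. The sources used here do not say how counts were scaled between libraries. A change shared by most genes may therefore not show in this median.

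The promoters of strongly rising genes are shown first, taken as the bases before the RefSeq start. Which start Pol II used was not measured here. For some of these genes, such as CCDC80, the gene in GENCODE v29 begins further upstream. The genes are the first 6 of the largest rises and of the higher immediate early transcription factors that have an entry in the RefSeq promoter table (GRCh38.p14), with FOS in both. Each line gives the 100 bases before the RefSeq start, 5′ to 3′ on the gene's strand, in lower case, with matches to the TATA box TATAAA in capitals.
PCDH19: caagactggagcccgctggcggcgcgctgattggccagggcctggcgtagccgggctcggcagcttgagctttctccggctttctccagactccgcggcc
FOS: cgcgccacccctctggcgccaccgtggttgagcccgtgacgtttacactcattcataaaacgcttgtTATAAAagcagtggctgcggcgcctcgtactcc
SHISA2: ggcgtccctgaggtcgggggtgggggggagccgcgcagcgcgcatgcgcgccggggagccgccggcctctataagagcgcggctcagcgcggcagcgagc
TENT5C: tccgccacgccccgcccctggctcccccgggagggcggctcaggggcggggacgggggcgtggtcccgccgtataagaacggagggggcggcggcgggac
CDKN2B: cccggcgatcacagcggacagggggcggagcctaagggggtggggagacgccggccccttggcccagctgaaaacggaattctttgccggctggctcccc
CCDC80: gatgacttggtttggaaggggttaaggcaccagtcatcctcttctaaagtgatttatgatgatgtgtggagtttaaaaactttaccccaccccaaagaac
FOSB: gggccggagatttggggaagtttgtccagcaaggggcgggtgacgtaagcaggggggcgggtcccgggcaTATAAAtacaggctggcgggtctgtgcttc
NR4A3: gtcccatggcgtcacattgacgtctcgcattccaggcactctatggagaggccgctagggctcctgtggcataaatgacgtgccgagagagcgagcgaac
KLF4: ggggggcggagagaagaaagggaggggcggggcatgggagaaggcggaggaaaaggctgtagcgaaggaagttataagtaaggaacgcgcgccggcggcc
FOSL2: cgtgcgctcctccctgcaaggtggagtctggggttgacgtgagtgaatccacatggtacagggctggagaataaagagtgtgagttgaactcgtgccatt
ATF3: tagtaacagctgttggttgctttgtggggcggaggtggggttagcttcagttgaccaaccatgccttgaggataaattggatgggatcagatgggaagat
They lie at chrX:100410274-100410373 (minus strand) for PCDH19, chr14:75278728-75278827 (plus strand) for FOS, chr13:26052017-26052116 (minus strand) for SHISA2, chr1:117605948-117606047 (plus strand) for TENT5C, chr9:22009306-22009405 (minus strand) for CDKN2B, chr3:112641144-112641243 (minus strand) for CCDC80, chr19:45467896-45467995 (plus strand) for FOSB, chr9:99821785-99821884 (plus strand) for NR4A3, chr9:107489770-107489869 (minus strand) for KLF4, chr2:28392758-28392857 (plus strand) for FOSL2 and chr1:212565307-212565406 (plus strand) for ATF3. TATAAA, searched on both strands, begins 33 bases before the start of FOS and 30 bases before the start of FOSB, and the other 9 promoters hold no match in the 250 bases before the start. Letters close to this motif, such as TATAAG in the stretches of SHISA2, TENT5C and KLF4, were not searched. Counted over 250 bases before to 50 after the start, the motif is in 5.29% of the promoters of 9956 tested protein-coding genes and in 12.0% of all promoters of the RefSeq table. The CArG box bound by SRF, the CRE TGACGTCA, the EGR site GCGTGGGCG and the AP-1 site TGANTCA had no match in the 11 stretches shown, and no match says only that these letters are not in this window. An AP-1 match begins within the 50 bases after the start of FOSL2, outside its stretch. Over the longer window these motifs are in 1.11%, 3.40%, 1.40% and 3.88% of the promoters of tested genes, in that order, and in 1.29%, 1.98%, 0.784% and 7.76% of all promoters of the table. No comparison of motif shares between higher and other genes is drawn, as genes without a promoter in the RefSeq table are left out. Of the higher protein-coding genes 78.3% had a promoter there, beside 80.8% of the tested and 81.3% of the lower ones. A difference in motif shares was not tested.

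TEX14, which encodes a protein of germ-cell intercellular bridges, had the largest rise among genes averaging 100 normalized counts or more. Its level was 1285 normalized counts after INTS8 loss against 46.9 in the control, and the authors' deposited table gives a log2 change of 4.78 ± 0.16 (adjusted p = 1.07e-180, DESeq2). The gene lies at chr17:58556678-58692055 on the minus strand, and RNU1-52P, a U1 snRNA pseudogene inside it on the same strand, also rose, by 4.08 (adjusted p = 0.0117, the authors' DESeq2 test in the deposited table). Reads of the gene and the pseudogene cannot be told apart here.

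PCDH19, a protocadherin of neural cell contacts on chromosome X, reached 394 after INTS8 loss against 27.8 in the control, a change of 3.83 ± 0.20 in the authors' deposited table. PCDH9, another protocadherin, reached 6587 after the loss against 911 in the control (2.85 ± 0.13) in the same deposited table of the authors. CCDC80, a secreted matrix protein, reached 1739 after the loss and 227 in the control, which the authors' deposited table gives as 2.94 ± 0.13. The neuronal pentraxin NPTX2 rose by 2.90 ± 0.25, and SHISA2, an endoplasmic reticulum protein that restrains receptor maturation, by 3.45 ± 0.25 in the authors' deposited table.

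FOS, the AP-1 subunit, stood at 364 after INTS8 loss and 27.7 in the control (3.72 ± 0.23, authors' deposited table). SNAI1, a repressor of epithelial genes, stood at 198 after INTS8 loss and 18.1 in the control (3.45 ± 0.28) in the same deposited table of the authors. CDKN2B, an inhibitor of CDK4 and CDK6, rose by 3.11 ± 0.43, with the widest error of the 11 rises described, in the authors' deposited table. TENT5C, a poly(A) polymerase, rose by 3.16 ± 0.15, and CYP1B1, an oxidoreductase induced through the aryl hydrocarbon receptor, by 2.87 ± 0.17 in the same deposited table of the authors. All 11 had an adjusted p of 4.85e-11 or less in the authors' DESeq2 test.

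Falls were small beside these. FOXP2, a forkhead repressor, had the largest fall among genes with a mean of at least 100, with 244 normalized counts after INTS8 loss and 474 in the control (-0.96 ± 0.13; adjusted p = 8.95e-11, authors' DESeq2 test, deposited table). PRKACB, a catalytic subunit of protein kinase A, changed by -0.94 ± 0.14, and STK39, a kinase that regulates ion cotransporters, by -0.93 ± 0.15 in the authors' deposited table. MAP2K6, the kinase upstream of p38, and SLC4A4, a bicarbonate cotransporter, each changed by -0.85 (± 0.14 and ± 0.17, in that order; authors' deposited table). KCNQ5, a potassium channel, changed by -0.88 ± 0.15, NACC2, a BTB-domain repressor, by -0.88 ± 0.17 and KLHL5, a kelch protein, by -0.83 ± 0.16 in the authors' deposited table. UAP1L1 (-0.82 ± 0.20) and the histone genes H2AC15 (-0.95 ± 0.19), H2BC11 (-0.81 ± 0.15) and H1-4 (-0.80 ± 0.26) complete the 12 largest falls in the authors' deposited table. The call of H1-4 is lost at an FDR of 0.01. None of these 12 falls reached a size of 1 on the log2 scale.

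**Figure D1:**
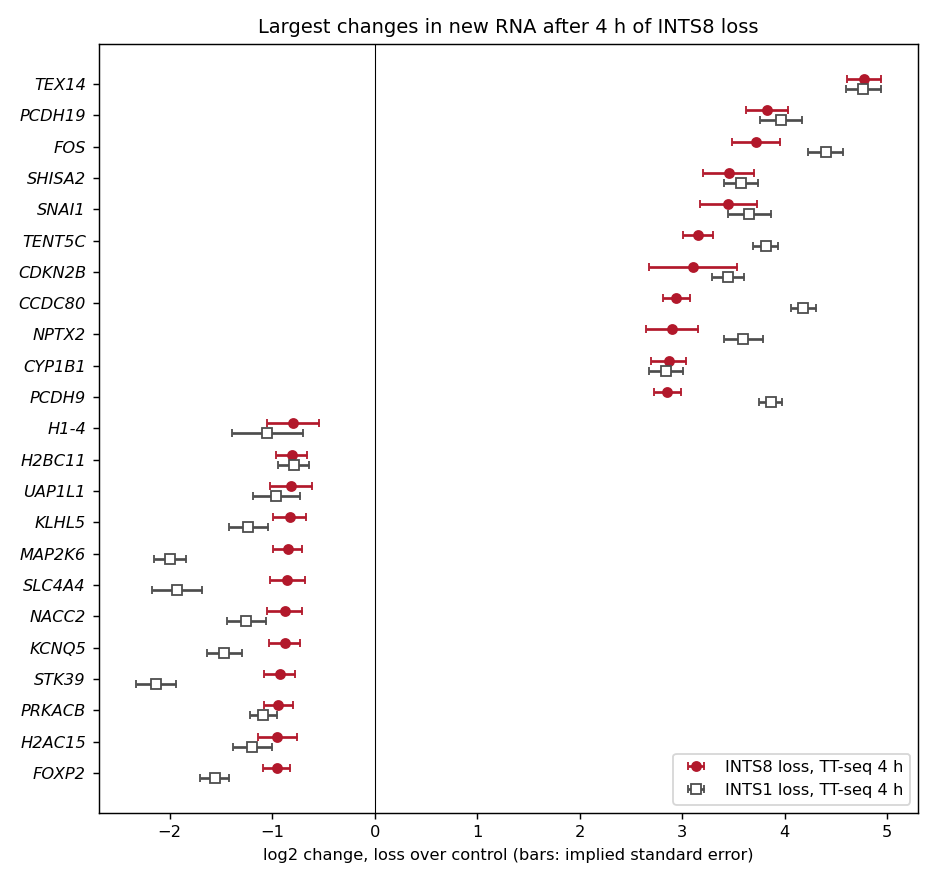
Of the largest changes in new RNA among genes averaging 100 counts or more, 11 rises and 12 falls, as log2 change of loss over control on the horizontal axis, with genes down the vertical axis. Red circles are INTS8 loss and open squares INTS1 loss at 4 h; bars are the standard errors implied by the deposited p-values. The INTS8 rises run between 2.85 and 4.78, and the falls between -0.96 and -0.80.

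Immediate early genes, the first genes to respond to growth factors and stress and many of them held by paused Pol II, were the lists with the highest medians of the 23 plotted by list. Of 22 tested transcription factors of this kind 11 were higher and none lower, with a list median of 1.09 against -0.01 over all tested genes in the authors' deposited table. The shares over all tested genes were 6.56% higher and 2.87% lower. FOSB, an AP-1 subunit, had 145 normalized counts after INTS8 loss and 7.33 in the control, a change of 4.30 ± 0.36 in the authors' deposited table. NR4A3, an orphan nuclear receptor, rose by 1.93 ± 0.17, and KLF4, a zinc finger factor, by 1.89 ± 0.17 in the same deposited table of the authors. EGR3 rose by 1.77 ± 0.62 from few counts, 13.9 after the loss against 4.07 in the control (adjusted p = 0.0483, authors' DESeq2 test, deposited table). JUN and MYC, the best known members, had changes of 0.67 (adjusted p = 0.348) and 0.04 (adjusted p = 0.911) in the authors' deposited DESeq2 table and did not pass.

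Other immediate early genes, which encode effectors rather than transcription factors, were higher in 17 of 18 tested, with none lower and a median of 1.34 in the authors' deposited table. Beside this count, 6.56% of all tested genes were higher and 2.87% lower. SGK1, a kinase of salt and stress responses, had 1311 normalized counts after INTS8 loss and 191 in the control (2.78 ± 0.15, authors' deposited table). PLK2, a polo-like kinase, rose by 2.32 ± 0.15 and GADD45B, a stress sensor of the p38 pathway, by 2.01 ± 0.39 in the authors' deposited table. RASD1, a small GTPase, rose by 3.16 ± 0.46, the synaptic gene ARC by 2.93 ± 0.39 and GADD45G by 1.89 ± 0.55, all from control levels under 10 in the authors' deposited table. ZFP36, an RNA decay factor, was the tested member that did not pass, at 0.57 (adjusted p = 0.264, authors' DESeq2 test, deposited table). IER3 had no adjusted p.

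Feedback genes of the ERK and cytokine pathways, which are induced by these pathways and damp them, were higher in 11 of 18 tested, with none lower and a median of 0.66 in the authors' deposited table. Among all tested genes 6.56% were higher and 2.87% lower. SPRY4, which inhibits receptor tyrosine kinase signals, changed most, by 4.60 ± 0.72, yet from a control level of 1.58 normalized counts against 38.4 after the loss, so the size of that change rests on a few counts in the authors' deposited table. SOCS1, an inhibitor of JAK kinases, rose by 3.22 ± 0.41 (70.4 after INTS8 loss, 7.56 in the control), and ETV5, an ETS factor, by 2.68 ± 0.44 in the authors' deposited table. The ERK phosphatases DUSP6 (1.83 ± 0.44) and DUSP5 (2.31 ± 0.29) rose, as did DUSP10 (1.32 ± 0.28), which acts on JNK and p38, in the authors' deposited table.

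Of 16 tested genes of the Integrator core, arm and cleavage modules 3 were higher and none lower, with a median of 0.03 in the authors' deposited table. NABP1, a single-stranded DNA-binding protein of the SOSS complex, rose by 1.19 ± 0.13, INTS2 by 0.65 ± 0.12 and INTS14 by 0.32 ± 0.11, in the authors' deposited table. INTS1 (-0.18, adjusted p = 0.638) and INTS11 (-0.57, adjusted p = 0.254) did not pass the authors' DESeq2 test in the deposited table. In the phosphatase module and the PP2A core 2 of 7 were higher and none lower. Beside both counts, 6.56% of all tested genes were higher and 2.87% lower. INTS6, which binds PP2A in the module, had 5127 normalized counts after INTS8 loss and 2379 in the control (1.11 ± 0.11), and its paralog INTS6L had 1215 and 363 (1.74 ± 0.12), in the authors' deposited table. INTS8 itself changed by 0.25 ± 0.13 (1001 normalized counts after the loss, 843 in the control; adjusted p = 0.242, authors' DESeq2 test, deposited table). TT-seq does not measure protein, so the loss of INTS8 protein is not checked by these values.

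Regulators of pausing and elongation were mostly not called. Of 9 tested 7SK and P-TEFb genes 1 was higher, HEXIM1, which holds the P-TEFb kinase inactive on 7SK RNA, with 1600 normalized counts after INTS8 loss against 566 in the control (2.83-fold, authors' deposited table). RN7SK, the 7SK RNA itself, was at -0.16 (adjusted p = 0.559, authors' DESeq2 test, deposited table). Among 18 pausing and elongation factors ELL2, of the super elongation complex, rose by 0.87 ± 0.12 and CTR9, of the PAF1 complex, by 0.45 ± 0.10, with none lower, in the authors' deposited table. Of 22 cleavage, polyadenylation and exosome genes 1 was higher, ZC3H4 (0.40 ± 0.13), which restricts unproductive transcription, in the authors' deposited table; the call is lost at an FDR of 0.01, and 6.56% of all tested genes were higher.

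Of 20 tested spliceosomal and other Pol II snRNA genes 9 were higher and none lower, with a median of 0.35 in the authors' deposited table. Set against this, 6.56% of all tested genes were higher and 2.87% lower. The U1 genes RNU1-2 (0.85 ± 0.14) and RNU1-1 (0.76 ± 0.16), the U5 genes RNU5B-1 (0.66 ± 0.13) and RNU5A-1 (0.65 ± 0.12), the U4 gene RNU4-1 (0.64 ± 0.13) and RNU2-2P (0.54 ± 0.11) were the leading ones in the authors' deposited table. RNU1-2 had 423 normalized counts after INTS8 loss and 235 in the control. Copies of these genes are near identical, so the reads of one cannot be assigned with certainty.

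The stress list tied to the title of the series, ATF4 and CHOP targets, did not move one way: 4 of 28 tested were higher and 2 lower, with a median of -0.06 in the authors' deposited table. The shares over all tested genes were 6.56% higher and 2.87% lower. DDIT3, which encodes CHOP, had 558 normalized counts after INTS8 loss and 248 in the control (1.17 ± 0.16), and the cystathionine enzyme CTH 595 and 301 (0.98 ± 0.12), in the authors' deposited table. ALDH1L2, a mitochondrial folate enzyme, rose by 1.08 ± 0.29 and VEGFA, the vascular growth factor, by 0.71 ± 0.13, in the authors' deposited table. ATF4 itself, the central factor of the response, was lower, with 2486 after the loss and 3642 in the control (-0.55 ± 0.13; adjusted p = 0.000645, authors' DESeq2 test, deposited table), and SHMT2, a serine enzyme, was lower too (-0.40 ± 0.12), a call lost at an FDR of 0.01. ATF4 is controlled largely in translation, which RNA synthesis does not show. In the INTS1 comparison of the same assay 11 of these 28 were higher and 1 lower, with a median of 0.24 in the authors' deposited table. Over all genes tested in that INTS1 comparison 13.3% were higher and 10.7% lower. The difference between the comparisons passed its test in 1 member, DDIT3 (-0.76, adjusted p = 0.0222, Wald test).

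Of 12 tested eIF2α kinases and double-stranded RNA sensors 1 was higher, EIF2AK3 (PERK; 0.34 ± 0.11), and EIF2AK2, which encodes PKR, was at -0.11 (adjusted p = 0.615), in the authors' deposited DESeq2 table. Interferon response genes were higher in 2 of 14, including IRF1 (1.15 ± 0.16), in the authors' deposited table. Of 17 unfolded protein response genes 2 were higher, MANF (0.48 ± 0.17) and DNAJC3 (0.37 ± 0.12), and of 12 heat shock genes 2 were lower, HSPA4 (-0.34 ± 0.11) and HSPA8 (-0.29 ± 0.10), in the authors' deposited table. The calls of EIF2AK3, MANF, DNAJC3, HSPA4 and HSPA8 are lost at an FDR of 0.01. Over all tested genes 6.56% were higher and 2.87% lower, so counts this small in lists of this size are no result about the lists.

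Targets of the aryl hydrocarbon receptor, a ligand-activated factor that induces detoxifying enzymes, were higher in 5 of 7 tested, with a median of 1.05 in the authors' deposited table. Beside CYP1B1 these were CYP1A1 (2.71 ± 0.33), ALDH3A1 (2.09 ± 0.53), TIPARP (1.05 ± 0.10) and AHR itself (0.37 ± 0.11) in the authors' deposited table. The p53 targets were higher in 6 of 20 tested, led by BTG2 (1.42 ± 0.17), an antiproliferative factor, PLK3 (1.29 ± 0.33) and the CDK inhibitor CDKN1A (1.20 ± 0.20) in the authors' deposited table. MDM2, another p53 target, was at -0.16 in the authors' deposited table and did not pass. Of 29 cell cycle genes 4 were higher, CCNE2 (0.76 ± 0.13), CCNE1 (0.57 ± 0.15), RRM2 (0.54 ± 0.09) and CCND1 (0.51 ± 0.15), in the authors' deposited table. The cell cycle list had a median of 0.003, with 13 of its 29 genes below 0. Beside these counts, 6.56% of all tested genes were higher.

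Of 19 developmental transcription factors 5 were higher, among them ID1 (1.14 ± 0.21), ID2 (0.76 ± 0.10), ID4 (0.70 ± 0.10) and HES1 (0.82 ± 0.14), which inhibit differentiation, in the authors' deposited table. For this count and those that follow, the shares over all tested genes were 6.56% higher and 2.87% lower. SRF targets were higher in 3 of 13, CCN2 (1.40 ± 0.27), CCN1 (0.92 ± 0.17) and FLNA (0.79 ± 0.18), and sterol genes in 3 of 19 (IDI1 0.67 ± 0.11, SC5D 0.52 ± 0.12, INSIG1 0.36 ± 0.12), with SREBF1 lower (-0.62 ± 0.18), in the authors' deposited table; the calls of INSIG1 and SREBF1 are lost at an FDR of 0.01. Neural and adrenal genes that mark HEK293 cells were higher in 4 of 10 tested, NEFH (3.21 ± 0.93), TUBB3 (2.40 ± 0.36), NES (1.89 ± 0.25) and NEFM (1.02 ± 0.33), in the authors' deposited table, and 2 of the 4 calls, TUBB3 and NES, hold at an FDR of 0.01. Of the defining markers of other cell types, none for fibroblasts was measured, 1 for blood (CORO1A) and 3 for colon (CDX2, LGR5, EPCAM) were tested, and none of these 4 passed.

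Ribosomal protein and histone genes held most of the lower calls among the lists. Of 32 cytosolic ribosomal protein genes 16 were lower and none higher, all 32 lay below 0, and the median was -0.31 in the authors' deposited table. RPL10 (-0.51 ± 0.13), RPL28 (-0.47 ± 0.15) and RPL13A (-0.45 ± 0.11) changed most, and 2 of the 16 calls hold at an FDR of 0.01, in the authors' deposited table. Of 48 replication-dependent histone genes, whose short transcripts carry no poly(A) tail, 28 were lower and none higher, with a median of -0.59 and 47 below 0, in the authors' deposited table. H2AC11 (-0.75 ± 0.14) had 939 normalized counts after INTS8 loss and 1579 in the control, in the authors' deposited table, and 19 of the 28 calls hold at an FDR of 0.01. After INTS1 loss in the same assay 21 of the 48 were lower, with a median of -0.56 in the authors' deposited table. Of all genes tested in that INTS1 comparison 10.7% were lower. Copies of histone genes are similar in sequence, so single genes are less certain than the list.

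**Figure D2:**
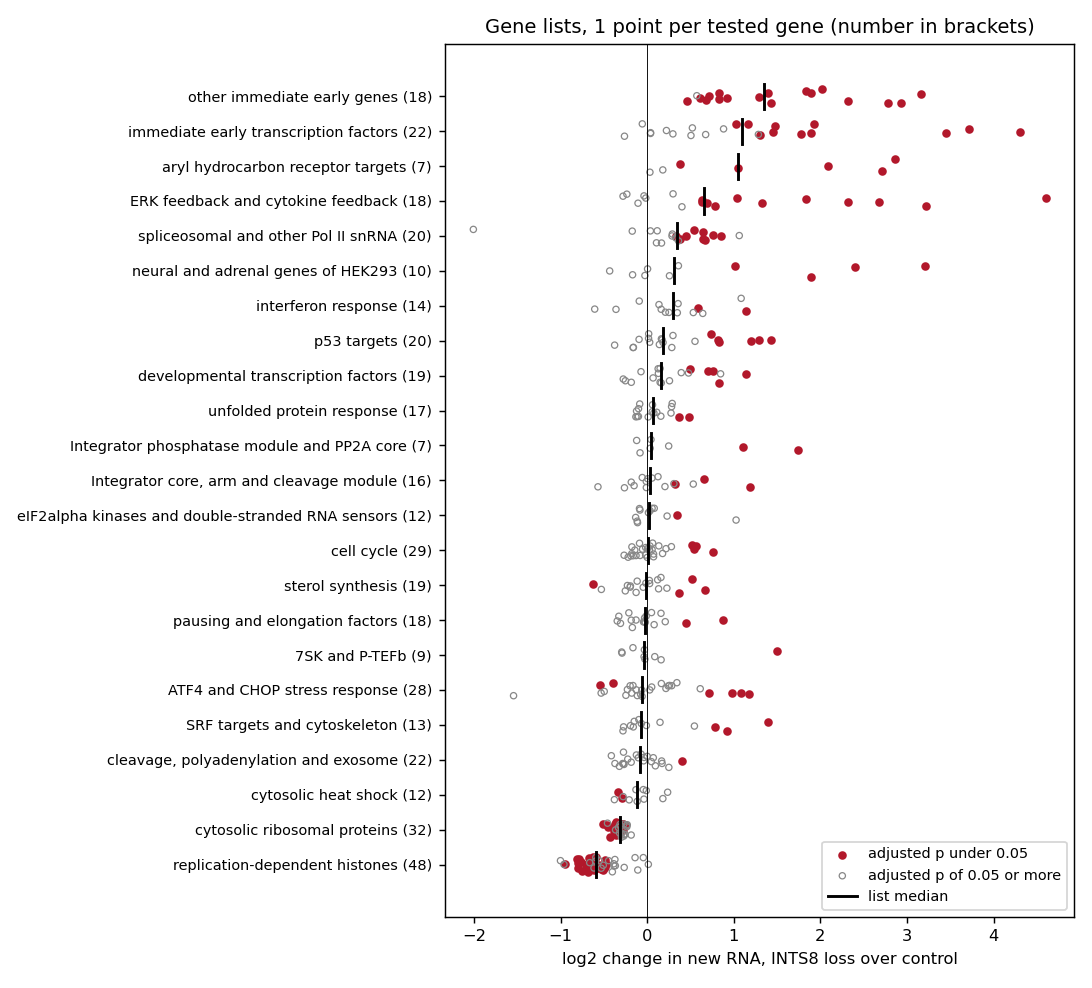
Log2 change in new RNA after INTS8 loss over control (horizontal axis) for each tested gene of 23 lists (vertical axis), filled where the adjusted p is under 0.05, with the list median as a bar. Immediate early genes lie highest (medians 1.34 and 1.09) and histones (-0.59) and ribosomal proteins (-0.31) lowest.

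Rises took between 5.05% and 7.19% of tested genes in each length class, and falls between 1.78% and 5.23%, by the authors' deposited table. Of genes over 100 kb 5.05% were higher and 5.23% lower, and of genes under 10 kb 7.19% were higher and 3.47% lower, by the authors' deposited table. Among genes averaging 100 counts or more the order of the falls turns, with 5.61% of genes over 100 kb and 6.58% of genes under 10 kb lower. That turn rests on the replication-dependent histone genes: without them 5.15% of genes under 10 kb at that level were lower, and 5.61% of those over 100 kb. Of 71 snRNA genes 12 were higher and 1 lower, 16.9% and 1.41%, against 6.56% and 2.87% of all tested genes in the authors' deposited table. Of the 33 averaging 100 counts or more 11 were higher (33.3%) and none lower, against 7.38% and 3.86% of all 8690 genes at that level. Of 1027 lncRNA genes 55 were higher and 8 lower, 5.36% and 0.779%, and of the 127 averaging 100 counts or more 11 were higher (8.66%) and 8 lower (6.30%), by the authors' deposited table. The lncRNA median, 0.23 over all tested, was 0.06 over those averaging 100 counts or more, in the authors' deposited table.

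**Figure D3:**
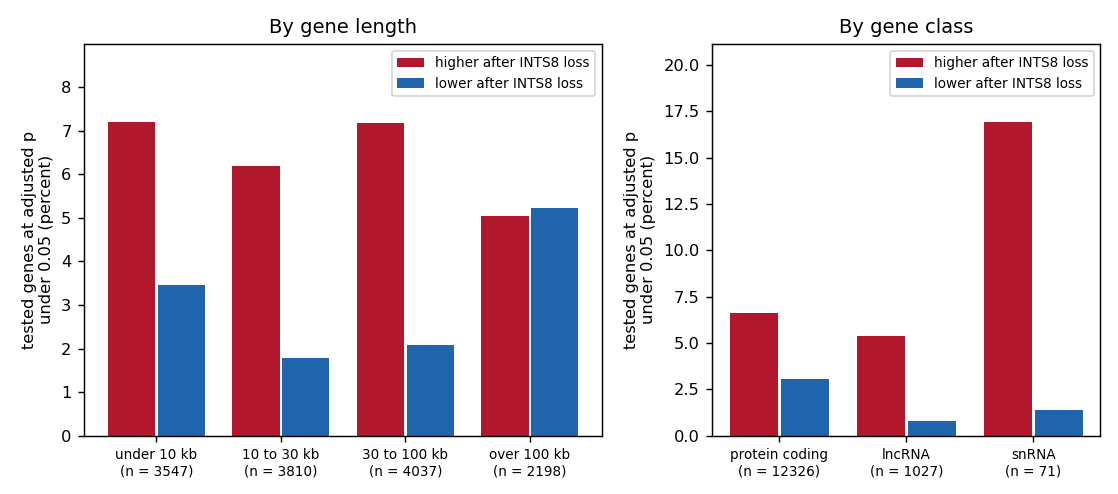
Share of tested genes higher (red) and lower (blue) after INTS8 loss at an adjusted p under 0.05, in percent on the vertical axis, by gene length on the left and by gene class on the right. Genes over 100 kb have 5.05% higher and 5.23% lower, and snRNA genes have 16.9% higher and 1.41% lower.

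The INTS8 changes were set beside those of INTS1 at the same time and assay, with 1847 genes higher (13.3% of those tested) and 1491 lower (10.7%) after INTS1 loss in the authors' deposited table. Of 1282 genes called after INTS8 loss, 1273 had the same sign after INTS1 loss; the reading of the INTS8 fold change fixed whether signs would mostly be shared or mostly opposite, so that their direction agrees is no result. Of the 892 higher genes 784 were also higher after INTS1 loss, 87.9% of the INTS8 list and 42.4% of the INTS1 list. Of the 390 lower genes 316 were shared, 81.0% and 21.2% of the lists in the same order, and no gene was called in opposite directions. Over 8414 genes with a mean of at least 100 in both, the log2 changes correlated with Pearson's r = 0.88 and Spearman's rho = 0.77 across genes. Genes are not independent replicates, and the sources used here do not say whether the 2 comparisons share any library. Their control levels differ between genes with an SD of 0.26 on the log2 scale.

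INTS8 changes were mostly smaller. Of 299 genes that rose by at least 1 after INTS1 loss, with a mean of at least 100 there, 281 (94.0%) were higher after INTS8 loss, 290 had a smaller change, and the medians were 0.91 after INTS8 loss and 1.44 after INTS1 loss in the authors' deposited table. Of 66 genes that fell by at least 1 after INTS1 loss, all 66 had a smaller change, 54 (81.8%) were lower after INTS8 loss, and the medians were -0.61 after INTS8 loss and -1.12 after INTS1 loss in the authors' deposited table. Since these genes were chosen by their INTS1 change, a smaller INTS8 value is partly built in, and the medians are a description. A Wald z test of the difference, run on all 13564 genes tested in both, passed in 116 genes (0.855%) at an adjusted p under 0.05. INTS8 was above INTS1 in 33 of them and below in 83, and in each of the 116 the INTS8 change was the smaller one. With the errors of the comparisons taken to correlate at 0.5, it passed in 381 genes above and 499 below. The standard errors limit what could be found: the interval of a difference spans a median of 0.37 to either side. Of 2229 genes called after INTS1 loss and not after INTS8 loss, 24 passed the test of the difference, so most calls of INTS1 alone are not shown to differ.

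Among genes past the test with a mean of at least 100, the 6 largest differences with INTS8 below INTS1 were in genes that rose more after INTS1 loss. GADD45B rose by 2.01 after INTS8 loss and by 3.56 after INTS1 loss, a difference of -1.55 (adjusted p = 0.029, Wald test), and JUNB, an AP-1 subunit, by 1.02 and 2.54 (difference -1.51, adjusted p = 0.000148), in the authors' deposited table. HAP1, a huntingtin-binding trafficking protein, rose by 2.51 after INTS8 loss and 3.93 after INTS1 loss in the authors' deposited table. NPPC, a natriuretic peptide (1.09 and 2.44), TNFSF9, a T cell ligand (1.47 and 2.74), and ADM, a vasodilator peptide (1.16 and 2.43), followed in the same order in the authors' deposited table. In the other direction USP44, a deubiquitinase, was at -0.24 after INTS8 loss (adjusted p = 0.515 in the authors' DESeq2 test) and fell by 1.56 after INTS1 loss, a difference of 1.33 (adjusted p = 0.00438, Wald test). STK39 changed by -0.93 after INTS8 loss and -2.13 after INTS1 loss, LRP2, an endocytic receptor, by -0.53 and -1.69, and MAP2K6 by -0.85 and -1.996, in the authors' deposited table. TTC13 (-0.65 and -1.77) and SLC4A4 (-0.85 and -1.93) complete the 6, in the authors' deposited table. By contrast TEX14 differed by 0.01 (95% interval -0.46 to 0.48) and CYP1B1 by 0.03 (-0.44 to 0.49).

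**Figure D4:**
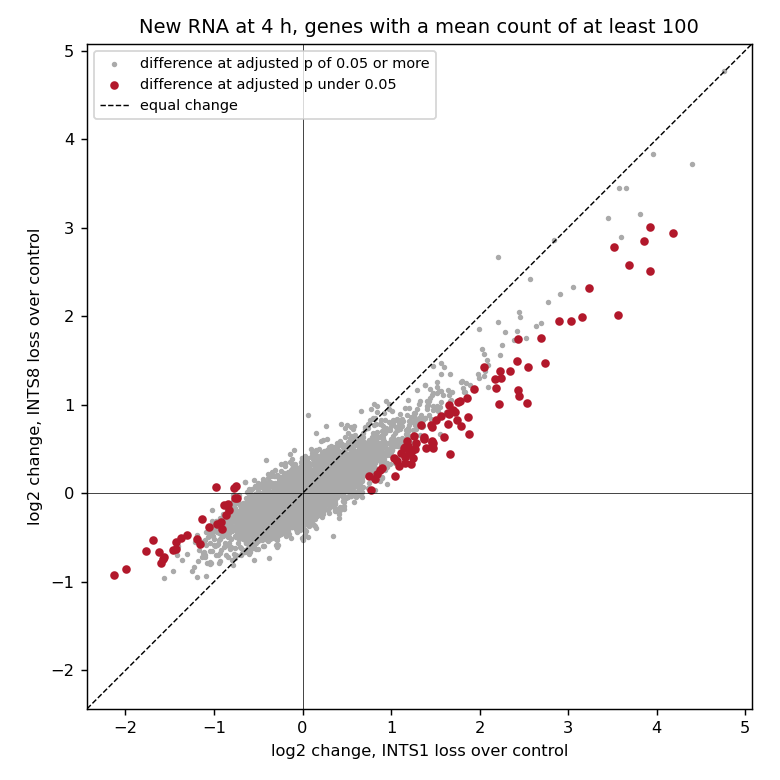
Log2 change in new RNA after INTS8 loss (vertical axis) against INTS1 loss (horizontal axis) at 4 h for 8414 genes averaging 100 counts or more in both; red points differ at an adjusted p under 0.05 and the dashed line marks equal change. Red points with a rise lie below the line and those with a fall lie above it.

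RNA in the stock, measured by RNA-seq after INTS1 degradation, was compared by counts. At 4 h 2774 genes were higher (19.2%) and 2779 lower (19.2%), and at 12 h 3170 (21.9%) and 3234 (22.3%), in the authors' deposited table. Of the 892 genes higher after INTS8 loss 810 (90.8%) were higher in RNA-seq at 4 h and 699 (78.4%) at 12 h, 29.2% and 22.1% of those lists. Of the 390 lower genes 287 (73.6%) were lower at 4 h and 247 (63.3%) at 12 h, 10.3% and 7.64% of those lists. In all 4 comparisons 647 of the 892 genes (72.5%) were higher and 191 of the 390 (49.0%) lower. Opposite calls were 1 gene at 4 h, USP40, and 13 higher and 36 lower genes at 12 h. Among the 36 were H1-3 and H2BC11, which were lower in new RNA after INTS8 loss (-0.77 and -0.81) and higher in RNA-seq at 12 h of INTS1 loss (0.67 and 0.53), in the authors' deposited table. In RNA-seq at 4 h of INTS1 loss H2BC11 was at -0.44. Of 48 replication-dependent histone genes 28 were lower and 3 higher at that time, with a median of -0.27. Ribosomal protein genes were also lower after INTS1 loss in TT-seq (21 of 32, median -0.32), whereas in RNA-seq at 4 h 3 of 32 were lower, with a median of -0.05, in the authors' deposited table. Beside these counts, 10.7% of all tested genes were lower in the INTS1 TT-seq comparison and 19.2% in RNA-seq at 4 h.

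**Figure D5:**
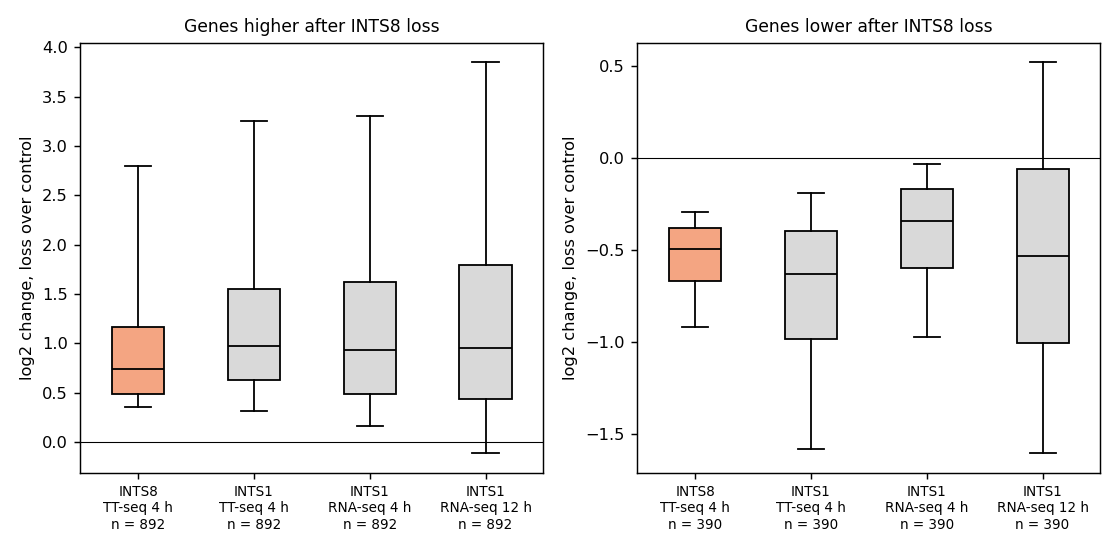
Log2 change of loss over control in the 4 comparisons for the 892 genes higher (left) and the 390 genes lower (right) after INTS8 loss; boxes hold the quartiles with the median as a line, and whiskers reach the 5th and 95th percentiles. The genes were chosen in the INTS8 comparison, whose medians are 0.74 and -0.49; the INTS1 TT-seq medians are 0.97 and -0.63.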

How the data were processed

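No library of the INTS8 experiment was used, only comparison columns. The series holds 17 libraries in 6 groups, per the labels. The RNA-seq columns were read as the INTS1 degron line with auxin against no auxin at 4 h and 12 h. Those groups have 3 libraries each, except the 4 h group without auxin, which has 2. The untreated degron and parental groups stand behind neither column. Per the submitters' processing notes STAR 2.7.3a, DESeq2, hg38 and dm6 are named, with no role given. The log2 values and fold ratios, the p-values and adjusted p-values, and score columns with mean normalized counts and the calls were deposited by the authors, per the file headers. Columns of log2 expression (level per transcript length) were also deposited by the authors. Of these columns 0 held values of a library left without a sample. Depth is unknown, and p-values measure the spread between libraries, which may be technical.

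The INTS8 expression column equals the group on top of the fold change (median error 0.000816 over 3441 genes, against 0.119 for the group under it). Among 105 changed genes the group under it lies a median of 0.245 from the INTS1 control, and the top group 1.51. The same column for INTS1 equals the group under its fold change (0.00114, against 0.187 for the group on top), so these columns do not fix a direction. The distances to the INTS1 control were used to read the fold change as loss over control, and group levels take both groups as equal in size. Deposited adjusted p-values are Benjamini-Hochberg values over the tested genes. INTS8 minus INTS1 was tested with a Wald z test with Benjamini-Hochberg adjustment, and 1070 genes had an unadjusted p under 0.05. The test was also run on simulated data with independent normal errors of the implied size. That run checks the calculation only, not the implied errors or their independence. Named genes are the 12 largest rises and falls, the 6 largest differences each way, and up to 6 called members of each list plus defining members; others named beside a list were chosen after their values were seen. Of these, 1 rise and 1 list member are not reported here. The Start column of the table holds the right end of genes, within 1000 bases for 79.9% of 14523 genes in GENCODE v29, which gave the coordinates. The genes, the 26 lists and the tests were chosen with earlier results of these data known. Python 3.11.15, pandas 2.3.3, numpy 2.4.6, scipy 1.17.1 and matplotlib 3.10.9 were used.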

Additional observations from a re-analysis of the deposited data

Results flagged for a closer look

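A test of the difference between the INTS8 and the INTS1 TT-seq changes at 4 h passed in 33 genes with INTS8 above INTS1 and in 83 with INTS8 below. The 6 largest differences below, as log2 change of INTS8 minus that of INTS1, were -1.55 for GADD45B, -1.51 for JUNB, -1.42 for HAP1, -1.35 for NPPC, -1.27 for TNFSF9 and -1.27 for ADM. The 6 largest above were 1.33 for USP44, 1.21 for STK39, 1.16 for LRP2, 1.15 for MAP2K6, 1.12 for TTC13 and 1.08 for SLC4A4. The sources used here do not say whether these comparisons share libraries, and the errors were taken as independent. Control levels of the INTS8 and INTS1 comparisons differ between genes with an SD of 0.26 on the log2 scale.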

How the results depend on the processing

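No paired analysis was possible because the INTS8 experiment is known only from comparison columns, with no value per library; no library could be left out for the same reason. With a log2 change of at least 1, 292 genes were higher and 13 lower; at an FDR of 0.01, 167 were lower. The difference between INTS8 and INTS1 passed in 13 genes above and 53 below at an FDR of 0.01, and in 381 above and 499 below with an error correlation of 0.5. Genes lower in both with RNA-seq were 120 at 4 h and 109 at 12 h at an FDR of 0.01, and list members called lower came to 22. Among genes averaging 100 counts or more, the shorter ones (under 10 kb) had 8.41% higher and 6.58% lower, 2.47% of those of 10 to 30 kb were lower, and 8.38% of those of 30 to 100 kb were higher. Of 454 named and list genes, 42 lost their call at an FDR of 0.01 and 4 with adjustment over all genes with a p; 5 gained one among genes with a mean of at least 100. Centring on the median turned the direction of none of the called genes among them. Among genes averaging 100 counts or more, the order of the falls between the shortest and the longest genes turned. The lncRNA shares, higher and lower, went from below those of all tested genes to above those of all genes at that level. Apart from these, the results above kept their direction under the alternatives run.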

Other observations

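The control levels of the INTS8 comparison differed from those of the INTS1 TT-seq comparison by chromosome, on the log2 scale per transcript length and relative to the median gene. Over genes with a mean of at least 100 in both, the median was -0.34 on chromosome 1 (885 genes) and -0.32 on chromosome 10 (345 genes), INTS8 control minus INTS1 control. On chromosome 10 genes ending below 40 Mb stood at 0.49 (84 genes) and those above at -0.39 (261 genes). On chromosome 15 genes above 60 Mb stood at -0.32 (162 genes) and those below at 0.01 (118 genes), and on chromosome 1 genes below 60 Mb stood at -0.51 (292 genes) and those above at -0.27 (593 genes). These positions were chosen after the values were seen. The median change after INTS8 loss in the same 6 stretches lay between -0.06 and 0.02.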
